A study of Rattus norvegicus with 138 samples.

Results

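The genes described here are musclin (Ostn) and 9 genes known to be switched on early by contraction and other stimuli in muscle: Ppargc1a, Nr4a1, Nr4a2, Nr4a3, Fos, Fosb, Junb, Egr1 and Atf3. They were taken by symbol from the 16181 gene symbols of the deposited table, where all 10 were found, and all 10 were among the 11328 genes tested. The genes were chosen by symbol with earlier results of these libraries known, and Ostn in particular had been listed among the lowest genes of injured muscle at 3 DPI, so that contrast is a description for it. Levels are in TPM, the share of all transcripts in a library that belongs to a gene, corrected for transcript length.

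The tissue was the tibialis anterior (TA) muscle of adult male Lewis rats, in which volumetric muscle loss (VML) was made on 1 side by taking a plug of muscle from the middle of the TA with a biopsy punch. The defect was left without repair or filled with a minced muscle graft, and the injured TA and, in a subset of rats, the uninjured contralateral TA were sequenced at 3, 7, 14 and 28 days post injury (DPI). The controls, labelled sham at day 0 but called unoperated in the study's text, were both TAs of only 2 rats, TS4.037 and TS4.038, so the 4 control muscles are not 4 animals. They carry another animal series name than the operated rats, so series and operation cannot be told apart against control, whereas injured and contralateral muscles came from the same series.

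Rats without repair that were not labelled as running gave 3, 8, 4 and 4 injured muscles at 3, 7, 14 and 28 DPI and 2, 4, 2 and 2 contralateral muscles. Grafted rats not labelled as running gave 7, 8, 4 and 4 injured and 2, 6, 2 and 2 contralateral muscles. Other rats carry the label Run: 8, 4, 4 and 2 injured muscles without repair, 6, 4, 4 and 2 with a graft, and 2 contralateral muscles in each repair arm at 3, 7 and 14 DPI. What the running consisted of, and the time from the last run to tissue collection, are not given in the sources used here.

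Before the comparisons, 13 libraries with a group were dropped because fewer than 7000 symbols exceeded 1 TPM, and this number of detected symbols is the readout that chose the libraries. The kept library nearest to that limit had 7866 such symbols and the dropped library nearest to it had 5712. The 116 kept libraries, with up to 10948 symbols, came from 114 muscles of 78 rats in 31 groups. Read depth is unknown, since TPM keeps none. The control and contralateral muscles carried the defining markers of fast skeletal muscle, with the 10 fast myofiber markers (Acta1, Myh4, Ckm and others) summing to 209286 to 272763 TPM in control muscle.

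As background, immediate early genes such as Fos, Fosb, Junb and Egr1 encode transcription factors that are made within minutes of a stimulus, without new protein synthesis, and Fos and Jun family proteins pair to form AP-1. Contraction induces many of them in muscle, together with the orphan nuclear receptors Nr4a1 to Nr4a3 and Ppargc1a, which encodes PGC-1alpha, a coactivator of mitochondrial genes. Musclin is a peptide secreted by myofibers that binds the natriuretic peptide clearance receptor. The same early genes also respond to growth factors, cytokines and stress in non-muscle cells, so a bulk library does not tell which cell made the transcript.

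Promoter sequences are shown for 3 genes, because Ppargc1a and Nr4a1 were lower and Junb higher in the same injured muscles. Each is the 250 bases before the start of the transcript, from RefSeq on build GRCr8, 5′ to 3′ on the strand of the gene, with capitals marking the cAMP response element TGACGTCA or its core TGACG, which reads as the letters CGTCA where it lies on the other strand. RefSeq windows were matched for 6 of the 10 genes, and none was matched for Ostn, Nr4a3, Fos and Atf3.
Ppargc1a, chr14:63634058-63634307, plus strand: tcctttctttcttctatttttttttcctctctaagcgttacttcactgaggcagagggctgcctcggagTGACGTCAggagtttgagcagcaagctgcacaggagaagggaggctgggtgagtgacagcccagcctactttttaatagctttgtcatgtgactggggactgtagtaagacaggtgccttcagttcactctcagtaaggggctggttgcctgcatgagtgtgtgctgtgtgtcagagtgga
Nr4a1, chr7:134259888-134260137, plus strand: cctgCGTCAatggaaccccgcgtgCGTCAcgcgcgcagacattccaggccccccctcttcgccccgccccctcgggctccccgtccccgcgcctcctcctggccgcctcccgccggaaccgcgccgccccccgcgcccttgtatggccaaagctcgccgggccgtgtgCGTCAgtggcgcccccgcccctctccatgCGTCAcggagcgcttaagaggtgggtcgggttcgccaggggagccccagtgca
Junb, chr19:40080876-40081125, plus strand: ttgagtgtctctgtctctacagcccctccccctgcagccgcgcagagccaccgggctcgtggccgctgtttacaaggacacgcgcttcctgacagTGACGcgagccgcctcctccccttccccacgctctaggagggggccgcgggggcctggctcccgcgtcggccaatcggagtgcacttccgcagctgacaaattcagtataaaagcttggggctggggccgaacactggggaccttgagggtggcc

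The element begins 181 bases before the start in Ppargc1a, the core begins 246, 226, 82 and 53 bases before it in Nr4a1, and 155 bases before it in Junb. Over the 33469 rat promoter windows of the same length, read on both strands, TGACGTCA was found in 1.59% and TGACG, which it contains, in 18.2%. TGACG was present in 5 of the 6 matched windows, Fosb being the exception. The AP-1 letters TGANTCA, present in 6.34% of all windows, and the NR4A letters AAAGGTCA, present in 1.24%, were found in none of the 6, and the CArG box, present in 1.5%, only in that of Egr1. The core was thus present in front of a gene that was higher and of genes that were lower after injury, and a match of letters is no evidence of a bound factor.

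Musclin was the member with the widest range. In control muscle Ostn stood at 61.8 and 51.2 TPM in the left and right TA of rat TS4.037 and at 61.3 and 36.5 TPM in those of rat TS4.038. In injured muscle without repair at 3 DPI it was 1.79, 3.02 and 1.79 TPM. At 7 DPI the lowest, median and highest of 8 injured muscles were 4.12, 7.39 and 21.4 TPM. No injured muscle at 3 or 7 DPI reached the lowest control muscle. At 14 DPI the 4 injured muscles held 26.9, 43.7, 30.7 and 30.9 TPM, of which only 43.7 TPM lay inside the control range. The others lay below every control muscle. At 28 DPI the 4 injured muscles held 523, 172, 31.9 and 187 TPM. Thus at 28 DPI 3 of 4 injured muscles were above every control muscle and the muscle of rat TS5.081 was below all of them.

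**Figure D1:**
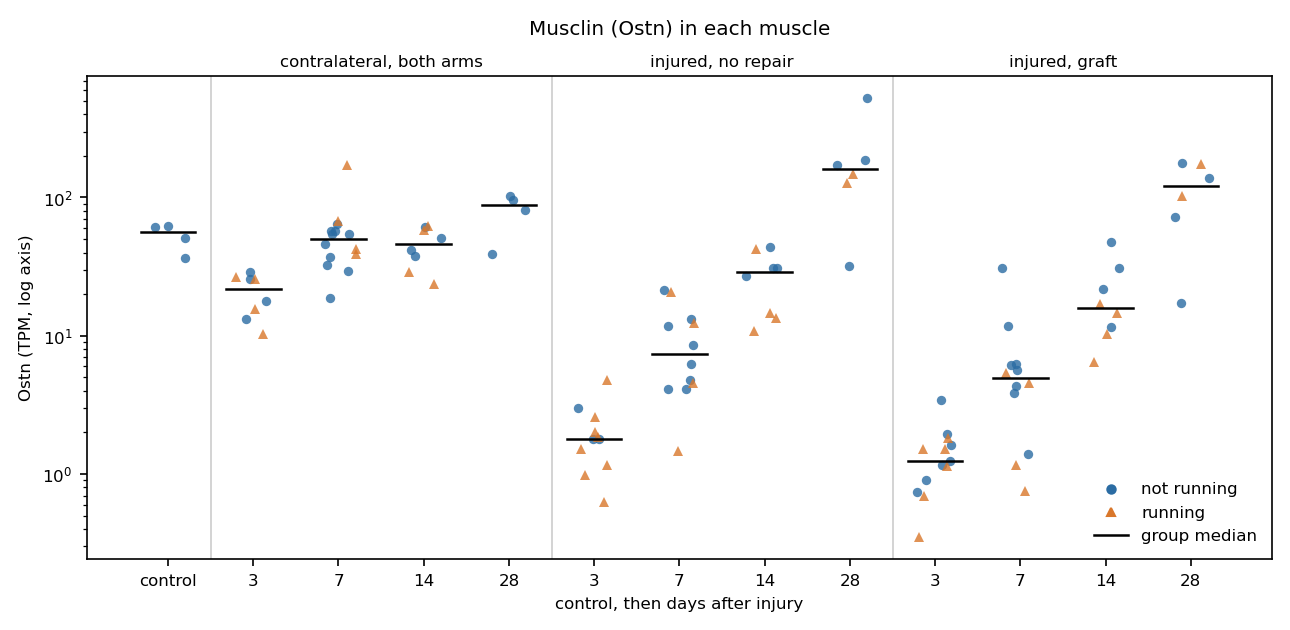
Ostn level in each of the 114 muscles (TPM, log axis) for control muscle and by days after injury for contralateral muscle of both repair arms, injured muscle without repair and injured muscle with a graft. Circles are rats not running, triangles running rats and bars group medians over both; the 24 injured muscles at 3 days lie between 0.35 and 4.81 TPM, below every control muscle.

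Against control, the log2 change of Ostn at 3 DPI was -4.06 ± 0.60 (SE), given as a description because an earlier analysis of these files had listed it among the lowest genes. Here and below, a gene was called when limma gave an adjusted p under 0.05 and the log2(TPM + 1) difference passed 1 in either direction, and rose or fell is written only of called genes. At 7 DPI Ostn fell by 2.55 ± 0.48 (adjusted p = 1.106e-06), at 14 DPI it stood at -0.65 ± 0.55 (adjusted p = 0.2841), and at 28 DPI it rose by 1.55 ± 0.55 (adjusted p = 0.009973). The rise at 28 DPI rested on rat TS5.073: without its injured muscle it was 0.96 with adjusted p = 0.1289. Between successive days, Ostn differed by 1.51 ± 0.53 from 3 to 7 DPI, a description that shares those muscles at 3 DPI. It rose by 1.90 ± 0.48 from 7 to 14 DPI (adjusted p = 0.0003618) and by 2.20 ± 0.55 from 14 to 28 DPI (adjusted p = 0.02291). The ranges of neighbouring days did not overlap at the 2 earlier steps. The step from 3 to 7 DPI was 1.43, no longer past the call limits, without rat TS5.010 or rat TS5.018, and the last step lost its call without rat TS5.073 (1.61), and also without rat TS5.074, TS5.129, TS5.137 or TS5.141 (2.11 to 2.17).

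Set against contralateral muscle of the same rat series, Ostn differed by -2.91 ± 0.71 at 3 DPI, again a description because the injured muscles are those of the listed contrast. It fell by 1.72 ± 0.48 at 7 DPI (adjusted p = 0.0006481), with differences of -0.48 ± 0.68 at 14 DPI and 1.25 ± 0.68 at 28 DPI (adjusted p = 0.1127). In grafted rats it fell by 2.99 ± 0.63 and 2.93 ± 0.42 at 3 and 7 DPI (adjusted p = 1.295e-05 and 9.908e-10). In the 34 rats with both muscles kept, the injured TA held less Ostn than the contralateral TA in 31, and in all 22 of those at 3 or 7 DPI. Without rat TS5.081 the difference from contralateral muscle at 28 DPI passed the call (1.995, adjusted p = 0.01217). With all libraries kept, the 13 dropped libraries, of at most 5712 symbols above 1 TPM, were put back. They were averaged with any kept library of the same muscle. The contralateral muscles of rats TS5.011 and TS5.012 at 7 DPI then came from dropped libraries alone. Under this setting the difference from contralateral muscle at 7 DPI was -0.37 (adjusted p = 0.4967), and the rise against control at 28 DPI was not called (adjusted p = 0.06634). The step from 14 to 28 DPI then lost its call too (adjusted p = 0.2657), and that from 3 to 7 DPI was 1.23.

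Ppargc1a, the coactivator of mitochondrial biogenesis, was also lower in injured muscle at 3 DPI, by less than Ostn. Control muscles held 12.98, 13.5, 10.1 and 6.0 TPM and injured muscles at 3 DPI 1.64, 4.88 and 3.83 TPM, so that the ranges did not overlap. It fell at 3 DPI by 1.41 ± 0.28 against control (adjusted p = 4.353e-06), by 1.79 ± 0.34 against contralateral muscle (adjusted p = 2.011e-06) and by 2.23 ± 0.30 against contralateral muscle in grafted rats (adjusted p = 1.227e-10). At 7 DPI the differences were -0.67 ± 0.23, -0.57 ± 0.23 and -0.95 ± 0.20, which passed the adjusted p but not the fold. At 14 and 28 DPI they lay between -0.36 and -0.02, and the 4 injured muscles without repair at 28 DPI held 14.1, 11.1, 9.98 and 6.37 TPM, inside the control range but for rat TS5.073.

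The NR4A receptors, a family of nuclear receptors that act without a known physiological ligand, did not move as a group. Nr4a1, which regulates glucose use genes in muscle, stood at 169 and 209 TPM in rat TS4.037 and at 113 and 57.5 TPM in rat TS4.038, and at 10.98, 29.6 and 16.3 TPM in injured muscle at 3 DPI. All 3 injured muscles lay below every control muscle. Against control it fell by 2.75 ± 0.31, 2.15 ± 0.25 and 1.42 ± 0.29 at 3, 7 and 14 DPI (adjusted p = 1.897e-13, 3.856e-13 and 9.244e-06). At 28 DPI it differed by -0.97 ± 0.29 (adjusted p = 0.001815), short of the fold, which it passed without either TA of rat TS4.038 or the injured muscle of rat TS5.073 or TS5.074 (-1.34 to -1.01). The injured TA held less Nr4a1 than the contralateral TA in 34 of 34 rats. Against contralateral muscle it fell at 3, 7 and 28 DPI (by 2.80, 1.29 and 1.10). With all libraries kept, the difference at 7 DPI turned to 0.12 (adjusted p = 0.7963) and that at 28 DPI was not called (adjusted p = 0.3383). The call at 28 DPI was also lost when 1 muscle of 3 was left out: without the contralateral muscle of rat TS5.073 it was -0.88 (adjusted p = 0.1196) and without the injured muscle of rat TS5.081 or rat TS5.082 it was -0.96 or -0.91.

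Nr4a2 was scarce, at 1.57, 2.85, 0.35 and 0.23 TPM in control muscle and 1.94, 2.02 and 1.54 TPM in injured muscle at 3 DPI, and its ranges overlapped. It was called against control on no day, its largest difference being 0.78 ± 0.18 at 7 DPI (adjusted p = 4.638e-05). Against contralateral muscle it rose by 1.32 ± 0.18 at 7 DPI (adjusted p = 1.83e-10), and in grafted rats by 1.06 ± 0.23, 1.33 ± 0.16 and 1.01 ± 0.25 at 3, 7 and 14 DPI. With median-of-ratios size factors, a rescaling of each muscle, all of these calls of Nr4a2 were lost, at 0.86 without repair and 0.64, 0.82 and 0.79 in grafted rats. The call at 3 DPI was lost without the contralateral muscle of rat TS5.013 (0.90) and that at 14 DPI without either muscle of rat TS5.135 (0.94 and 0.85), while without the right TA of rat TS4.037 the difference from control at 7 DPI passed the call (1.09). In all 34 rats with both muscles the injured TA held more. With a pseudocount of 0.1 TPM in place of 1, Nr4a2 was called against control at 3 and 7 DPI (1.06 and 1.46, adjusted p = 0.007192 and 6.839e-06), so the fold of so scarce a gene depends on the pseudocount. Nr4a3 was called in no comparison of injured with control or contralateral muscle at a pseudocount of 1, its differences from control being -0.54, -0.46, -0.66 and -0.89 at 3, 7, 14 and 28 DPI, and the injured TA held more in 23 rats and less in 10. With 0.1 TPM it was called higher than contralateral muscle at 7 DPI, without repair and with a graft (1.14 and 1.56, adjusted p = 0.02145 and 0.0004461), and lower than control at 28 DPI (-1.34, adjusted p = 0.02399). The control values behind both genes were split by animal: Nr4a3 was 4.15 and 5.06 TPM in rat TS4.037 but 0.87 and 0.49 TPM in rat TS4.038. Without the contralateral muscle of rat TS5.010, which leaves rat TS5.017 at 4.49 TPM, Nr4a3 differed by -1.38 from contralateral muscle at 3 DPI (adjusted p = 0.009739). Here and below, a p with 1 muscle left in a group assumes that it varies like those of the other groups.

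Among the AP-1 genes Junb, a partner of Fos proteins that is kept on by cytokines, had the largest and longest rise. Control muscles held 8.93, 13.7, 10 and 4.64 TPM and injured muscles at 3 DPI 119, 132.8 and 107.5 TPM, with no overlap. Its log2 rise against control was 3.62 ± 0.28, 2.65 ± 0.22, 1.41 ± 0.26 and 1.11 ± 0.26 at 3, 7, 14 and 28 DPI (adjusted p = 2.421e-21, 2.501e-19, 1.408e-06 and 0.0001082). At 28 DPI the 4 injured muscles held 19.3, 21.4, 22.4 and 17.3 TPM, all above the highest control muscle, although without the right TA of rat TS4.038 the difference was 0.84 and not called. Against contralateral muscle Junb also rose on all 4 days, from 2.82 ± 0.33 at 3 DPI to 1.28 ± 0.32 at 28 DPI, and the injured TA held more in 34 of 34 rats. The call at 28 DPI was lost with size factors (0.86) and with all libraries kept (adjusted p = 0.05077). From 7 to 14 DPI Junb fell by 1.25 ± 0.22 (adjusted p = 1.742e-06), a call lost in the same 2 ways (-0.86 and -0.90).

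Fos and Fosb, the partners that make AP-1 dimers with Jun proteins, had smaller differences against control. Fos was 14.8, 25.98, 9.84 and 3.02 TPM in control muscle and 28.3, 25.98 and 21.7 TPM in injured muscle at 3 DPI, so the right TA of rat TS4.037 lay within the injured range. Its rise of 1.17 ± 0.54 at 3 DPI (adjusted p = 0.03979) lost its call when the left or right TA of rat TS4.038 (1.13 and 0.65) or the injured muscle of rat TS5.010, TS5.017 or TS5.018 (1.08, 1.14 and 1.27) was left out, and with all libraries kept (adjusted p = 0.06925). Against contralateral muscle, where Fos was 1.63 to 7.53 TPM in 4 muscles at 7 DPI, it rose by 2.10 ± 0.43 at 7 DPI (adjusted p = 7.203e-06), and in grafted rats by 2.68 ± 0.57 at 3 DPI, 2.46 ± 0.38 at 7 DPI and 1.39 ± 0.61 at 28 DPI. The last was lost without the contralateral muscle of rat TS5.075 (0.97) or TS5.076 (1.81) or the injured muscle of rat TS5.076 (1.15) or TS5.083 (1.28), and with all libraries kept (adjusted p = 0.1104). Fosb was below 1 TPM in all 4 control muscles and 2.65, 2.56 and 1.99 TPM in injured muscle at 3 DPI, without overlap, and rose against control by 1.14 ± 0.31 and 1.33 ± 0.25 at 3 and 7 DPI (adjusted p = 0.0006042 and 1.134e-06).

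Egr1, a zinc finger factor induced by growth factor signalling, stood at 4.5 and 3.86 TPM in rat TS4.037, 14.6 and 7.08 TPM in rat TS4.038 and 35.6, 45.7 and 29.5 TPM in injured muscle at 3 DPI. All 3 injured muscles exceeded the control muscles. It rose against control by 2.29 ± 0.41, 1.77 ± 0.32 and 1.12 ± 0.38 at 3, 7 and 14 DPI (adjusted p = 3.125e-07, 7.072e-07 and 0.00589). The last was lost without either TA of rat TS4.037 (0.96 and 0.91) or without rat TS5.137 (0.98). Egr1 was higher in the injured TA in 34 of 34 rats. Atf3, a stress-induced factor of the ATF/CREB family, stood at 7.46, 11.1, 1.66 and 1.62 TPM in control muscle and 28.9, 17.3 and 21.5 TPM in injured muscle at 3 DPI, again without overlap. It rose against control by 2.16 ± 0.45 and 1.80 ± 0.36 at 3 and 7 DPI (adjusted p = 1.076e-05 and 4.635e-06), and its 0.99 at 14 DPI passed the call without either TA of rat TS4.037 (1.23 and 1.403) or any 1 of 3 injured muscles (1.0 to 1.04). Against contralateral muscle at 3 DPI its difference was only 0.81 ± 0.54, since the contralateral muscle of rat TS5.017 held 40.9 TPM against 3.16 TPM in rat TS5.010, and without rat TS5.017 it was 2.47 (adjusted p = 0.000405), against rat TS5.010 alone and with the spread taken from other groups. At 7, 14 and 28 DPI Atf3 rose against contralateral muscle by 2.40, 1.74 and 1.21. The last was lost with all libraries kept (adjusted p = 0.1395) and without any 1 of 5 of the 6 muscles compared (1.14 to 1.29), and the one before it without the contralateral muscle of rat TS5.133 (1.45, adjusted p = 0.06376).

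**Figure D2:**
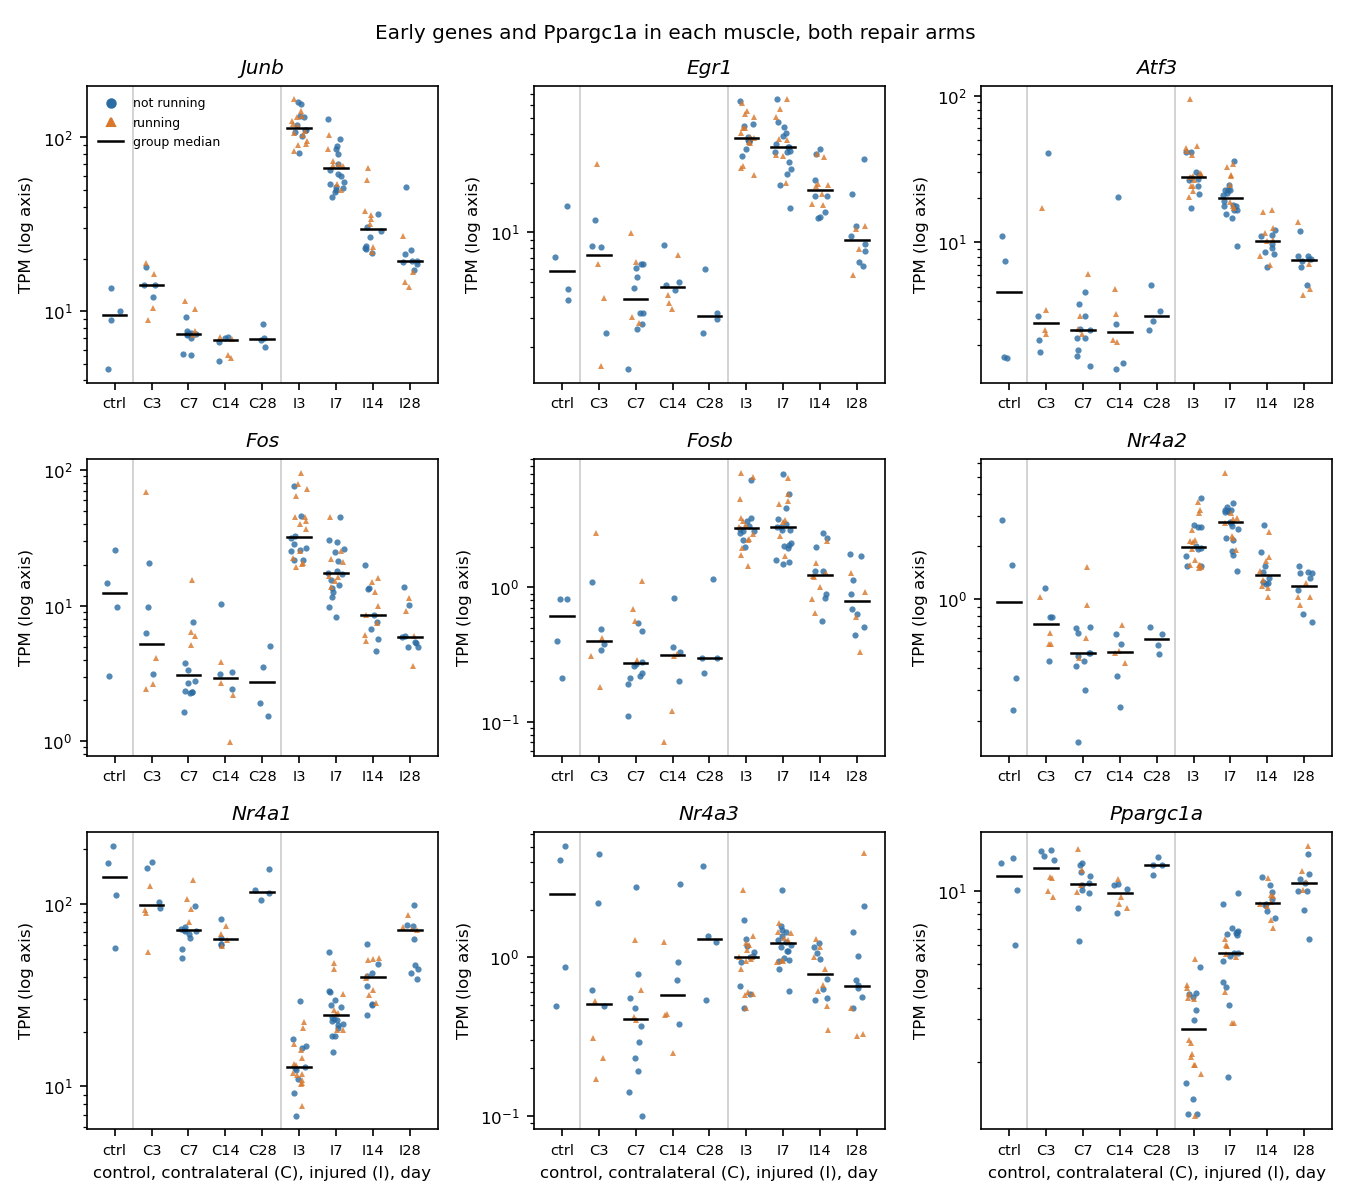
Levels of the other 9 genes in each of the 114 muscles (TPM, log axes that differ between panels), for control (ctrl), contralateral (C) and injured (I) muscle by day, both repair arms together. Circles are rats not running, triangles running rats and bars group medians; Junb, Egr1, Atf3, Fos and Fosb are highest in injured muscle at 3 or 7 days, while Nr4a1 and Ppargc1a are lowest in injured muscle at 3 days.

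Counted over the members without repair, 8 of 10 were called against control at 3 DPI, where 52.6% of all tested genes were called, 6 at 7 DPI (48.1% of all genes), 3 at 14 DPI (25.5%) and 2 at 28 DPI (21.3%). By direction, 5 and 4 members were higher at 3 and 7 DPI beside 48.3% and 45.6% of all genes, and 2 at 28 DPI beside 21.1%. At 14 DPI 2 members were higher, beside 2827 of 11328 genes. On the 4 days 3, 2, 1 and 0 members were lower beside 4.24%, 2.42%, 0.547% and 0.212%. Ostn at 3 DPI, given above as a description only, is among the 3 lower members and the 8 called. Against contralateral muscle 5, 8, 3 and 3 members were called on the same days, beside 38.2%, 47.4%, 21.1% and 13.3% of all genes. Of these members 2, 6, 3 and 2 were higher (32.3%, 45.3%, 20.9% and 13.1%) and 3, 2, 0 and 1 lower (5.92%, 2.01%, 0.168% and 0.212%). In grafted rats 9, 8, 3 and 4 were called, beside 44.0%, 46.2%, 26.1% and 19.1%. Of these members 6, 6, 3 and 3 were higher (37.2%, 42.9%, 25.6% and 18.8%) and 3, 2, 0 and 1 lower (6.80%, 3.35%, 0.530% and 0.300%). With 10 members these shares are a description and none is taken as particular to them.

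Calls near the fold moved when 1 muscle was left out. Against control at 28 DPI, Nr4a3 was called lower without the left or right TA of rat TS4.038 (-1.13 and -1.24), Fos was called lower without the right one (-1.35), and Atf3 was called higher without the right TA of rat TS4.037 (1.15). Against contralateral muscle without repair, Fosb was called at 3 DPI without the contralateral muscle of rat TS5.017 (1.19) or the injured muscle of rat TS5.018 (1.03), and at 14 DPI without rat TS5.141 (1.04). In grafted rats at 14 DPI, Egr1 lost its call without the contralateral muscle of rat TS5.131 (1.24), Atf3 gained one without that of rat TS5.135 (2.18), and Nr4a3 gained one, lower, without that of rat TS5.131 (-1.15). Nr4a1 gained a lower call there without the injured muscle of rat TS5.131 (-1.12). In grafted rats at 28 DPI, Nr4a1 lost its call of -1.04 without the contralateral muscle of rat TS5.075 (-0.94) or the injured muscle of rat TS5.076 (-0.88) or TS5.084 (-0.94), and Nr4a3 was called without the contralateral muscle of rat TS5.075 (-1.13).

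**Figure D3:**
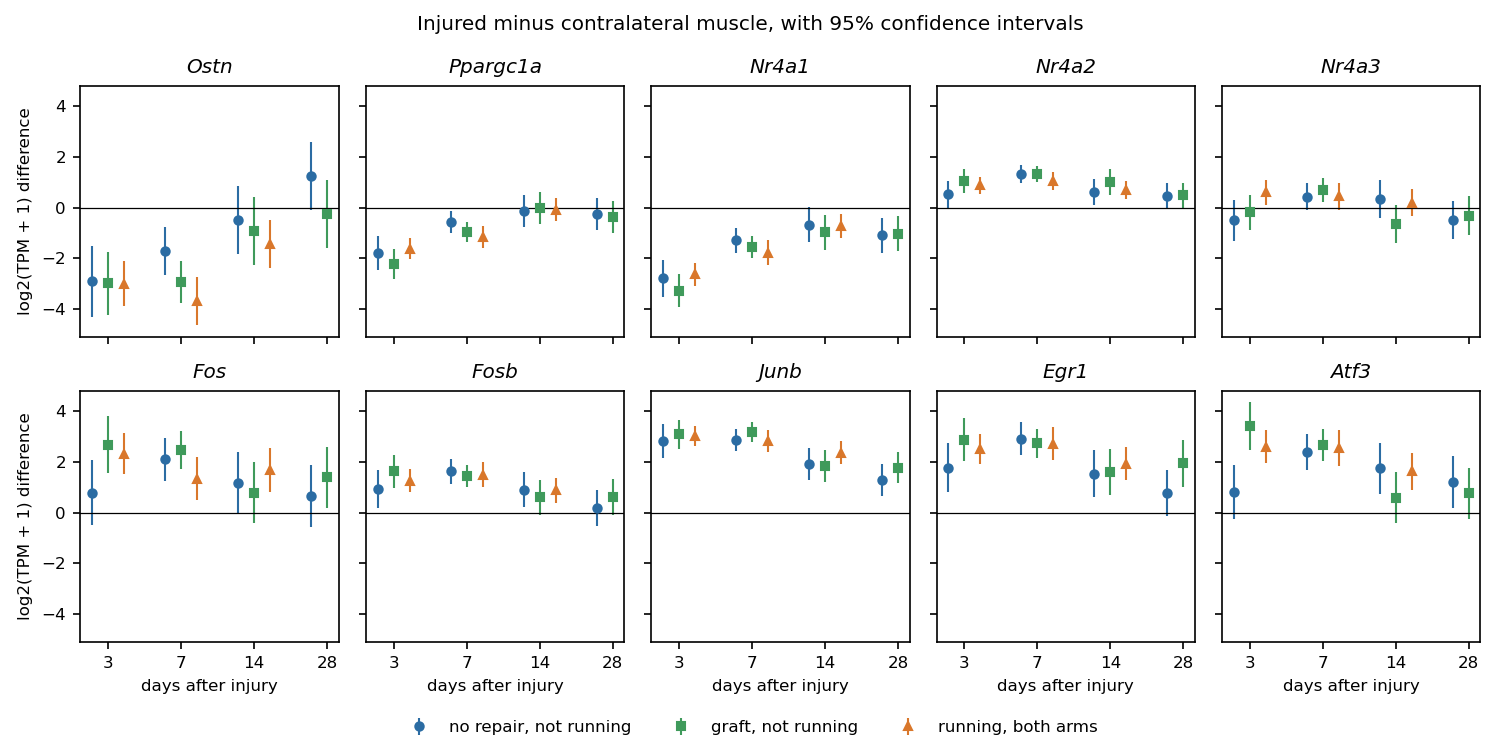
Difference of injured minus contralateral muscle for each gene on log2(TPM + 1), by days after injury, with 95% confidence intervals from limma, for rats without repair (circles), with a graft (squares) and running rats of both arms (triangles, no contralateral group at 28 days). Nr4a1, Ppargc1a and Ostn lie below 0 at 3 days and Junb lies above 0 on every day in every set of rats.

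The whole transcriptome was shifted in the same comparisons. The median log2 difference over all tested genes from control was 0.961, 0.915, 0.527 and 0.517 at 3, 7, 14 and 28 DPI. Rescaling each muscle by median-of-ratios size factors brought it to between 0.02 and 0.09. The share of called genes that were higher went from 91.9%, 94.97%, 97.9% and 99% to 59.3%, 60.6%, 72.8% and 78.4%. Against this shift Junb, Egr1, Atf3 and Fosb were above the median gene at 3 and 7 DPI. At 3 DPI Fosb and Fos were only slightly above it. No called member changed direction under the rescaling. Of those not called, Nr4a2 went from 0.49, 0.28 and 0.10 at 3, 14 and 28 DPI to -0.09, -0.02 and -0.19. Fos at 7 DPI went from 0.58 to -0.40 and Egr1 at 28 DPI from 0.29 to -0.31. Calls against control that were lost were those of Fos and Fosb at 3 DPI (0.11 and 0.60), Fosb, Egr1 and Atf3 at 7 DPI (0.82, 0.77 and 0.89), Junb and Egr1 at 14 DPI (0.78 and 0.50), and Ostn and Junb at 28 DPI (0.88 and 0.50). Lower calls that were gained were Nr4a3 on all 4 days (-1.19, -1.09, -1.09 and -1.32), Ppargc1a at 7 DPI (-1.64), Ostn at 14 DPI (-1.33), and Nr4a1 and Fos at 28 DPI (-1.65 and -1.44). Against contralateral muscle the median difference was 0.536, 0.910, 0.501 and 0.380, and 0.000 to 0.058 after rescaling. There, without repair, Egr1 at 14 DPI (0.98) and Atf3 at 28 DPI (0.86) also lost their calls, and Ppargc1a at 7 DPI (-1.55) and Nr4a1 at 14 DPI (-1.34) gained a lower call. In grafted rats Egr1 at 14 DPI and Fos at 28 DPI lost theirs (both 0.95), while Ppargc1a at 7 DPI (-1.78) and Ostn, Nr4a1 and Nr4a3 at 14 DPI (-1.62, -1.68 and -1.11) gained a lower call.

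Cell type markers moved with these results, and their part in them was not tested. In bulk muscle, fewer cells of a type and less RNA per cell cannot be told apart. The sum of the 10 fast myofiber markers was 41693 to 56418 TPM in injured muscle at 3 DPI, below the lowest control muscle, 59972 to 131438 TPM at 7 DPI and 168733 to 200337 TPM at 28 DPI. Of the 10, the number that fell against control was 10, 7, 3 and 1 at 3, 7, 14 and 28 DPI, with median differences of -2.21, -1.65, -0.37 and -0.45, beside -4.06, -2.55, -0.65 and 1.55 for Ostn. The sum of the 8 macrophage markers (Cd68, Csf1r and others) was 13.9 to 33.4 TPM in control muscle and 4217 to 5575 TPM at 3 DPI, and all 8 rose against control on all 4 days. All 6 fibroblast markers rose against control on all 4 days too, their sum reaching 5949 to 16848 TPM at 7 DPI against 65.5 to 215 TPM in control muscle. The 5 neutrophil markers summed to 1.21 to 5.66 TPM in control muscle and 75.8 to 271 TPM at 3 DPI.

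Genes of the same families were read from lists drawn up with these data known. Of 25 other immediate early genes tested, the numbers that rose against control were 18, 16, 7 and 5 at 3, 7, 14 and 28 DPI, and 1 fell, at 14 DPI. Of all genes tested, 48.3%, 45.6% and 21.1% rose at 3, 7 and 28 DPI, and at 14 DPI 2827 of 11328 rose and 0.547% fell. The median difference of the listed genes at 3 DPI was 1.66, beside 0.961 for all genes. The largest rises were in Myc, a growth regulator (3.47 ± 0.24), Ier5 (3.06 ± 0.20) and Fosl1, another Fos partner of Jun (3.03 ± 0.18). Of 25 exercise-responsive and PGC-1alpha-linked genes, 12 fell and 3 rose at 3 DPI, with a median of -0.92, beside 4.24% of all genes that fell and 48.3% that rose. Perm1, a muscle regulator induced by PGC-1alpha, fell by 3.13 ± 0.50 and Ckmt2, the mitochondrial creatine kinase of muscle, by 2.13 ± 0.32, while Angptl4, an inhibitor of lipoprotein lipase, rose by 4.73 ± 0.55. By 28 DPI 2 of these genes were lower and 2 higher, beside 0.212% and 21.1% of all genes.

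Natriuretic peptide genes were read because musclin binds a receptor of that family. Of 9 tested, 4 rose at 3 DPI, among them Nppa, the atrial natriuretic peptide (2.77 ± 0.28), Npr1, its signalling receptor (1.999 ± 0.20), and Furin, a protease that cleaves prohormones (1.71 ± 0.14), and at 28 DPI only Npr1 was called (1.01). Npr3, the clearance receptor itself, was not among the 3 called genes with the largest change at 3 DPI and was not called at 28 DPI. The share of all genes that rose was 48.3% and 21.1% on these days. Of 10 other myokine genes, those for peptides that muscle secretes, 8 rose and 2 fell at 3 DPI, beside 48.3% and 4.24% of all genes, led by Metrnl (4.39 ± 0.24), Igf1 (3.76 ± 0.26) and Sparc (3.57 ± 0.33). Their median was 2.43 at 3 DPI, beside 0.961 for all genes.

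The contralateral TA also differed from control in some members. Ostn in all 8 contralateral muscles at 3 DPI, running rats included, lay between 10.3 and 28.9 TPM, below the lowest control muscle, and at 7 DPI 14 muscles spanned 18.8 to 172 TPM with a median of 50.0 TPM. In rats not running, Ostn fell by 1.29 ± 0.55 against control at 3 DPI (adjusted p = 0.03471), where 7.15% of all genes were called. This call was lost without the left TA of rat TS4.037 (-1.20) or of rat TS4.038 (-1.21), or without the contralateral muscle of rat TS5.010 (-1.12) or rat TS5.013 (-1.06). Against contralateral muscle at 28 DPI, where 4 muscles held 38.9, 103.3, 95.2 and 81.7 TPM, contralateral Ostn at 3 DPI was lower by 1.81 ± 0.55 on the log2 scale (adjusted p = 0.006556; 1.75% of all genes called), a call lost without rat TS5.074 (-1.47). All genes were shifted in these comparisons: the median difference of contralateral muscle at 3 DPI was 0.441 from control and 0.347, 0.387 and 0.320 from contralateral muscle at 7, 14 and 28 DPI. Size factors brought these to between 0.002 and 0.025. The higher share of the calls against 7, 14 and 28 DPI then went from 95.3%, 95.8% and 97.98% to 42.7%, 42.8% and 61.2%. Contralateral Ostn at 3 DPI was then called lower than at 7 and 14 DPI as well (-1.38 and -1.66).

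Fos in contralateral muscle was higher at 3 DPI than at 7 and 28 DPI. It was 9.75, 20.7, 3.14 and 6.31 TPM in the 4 muscles of rats not running at 3 DPI, and rose there by 1.23 ± 0.42 against contralateral muscle at 7 DPI (adjusted p = 0.009584; 2.65% of all genes called) and by 1.28 ± 0.50 against 28 DPI (adjusted p = 0.03066). Both calls were lost without rat TS5.014 or without rat TS5.017 (0.98 to 1.08), and the latter also without rat TS5.073 (1.01) or rat TS5.075 (1.07). With size factors neither was called (0.90 and 1.000, adjusted p = 0.09575 and 0.1739). Atf3 was called against none of the other days. Without rat TS5.010 it was higher at 3 DPI than at 7, 14 and 28 DPI by 1.68, 1.25 and 1.34. That rested on rat TS5.017, at 40.9 TPM and then alone in its group, while rats TS5.013 and TS5.014 held 2.15 and 1.78 TPM. Other differences also passed the fold with a muscle left out. Among them, against 7 DPI without rat TS5.010 or TS5.014, Nr4a1 was 1.032 or 1.087 and Nr4a3 1.197 or 1.031. Egr1 was 1.115 against 7 DPI without rat TS5.013, and Fos 1.279 against 14 DPI without rat TS5.135. Junb rose at 3 DPI by 1.06 ± 0.26 against contralateral muscle at 14 DPI (adjusted p = 0.0004152; 3.35% of all genes called), and without rat TS5.010 or rat TS5.129 it fell just short of the fold (0.98), as it did with size factors (0.61). Over all days together, Fos was the only member called in contralateral muscle against control, lower by 1.19 ± 0.39 (adjusted p = 0.01826; 1.39% of all genes called, 1.35% higher and 0.0441% lower). That call rested on rat TS4.037: without its left or right TA the difference was -1.04 or -0.79 (adjusted p = 0.07148 and 0.1471). At 7 DPI Fos fell by 1.58 ± 0.42 and Nr4a3 by 1.017 ± 0.26 against control (1.04% of all genes called). Both lost the call without the right TA of rat TS4.037, at -1.18 and -0.69, and Nr4a3 also without its left TA (-0.77) or the contralateral muscle of rat TS5.105, TS5.106 or TS5.126 (-0.99 to -0.93). At 14 and 28 DPI no member was called against control (1.03% and 0.512% of all genes), with 3 and 2 members at an unadjusted p under 0.05, although with size factors Fos was called lower on both days (-1.31 and -1.88). Without the right TA of rat TS4.038, Fos was called at 14 and 28 DPI (-1.71 and -2.14) and Nr4a1 at 7 and 14 DPI (-1.19 and -1.24). Beside these values, 6 of 8 macrophage, 3 of 5 neutrophil and all 6 fibroblast markers rose in contralateral muscle at 3 DPI against control, none of the 10 fast myofiber markers was called, and the part of other cells was not tested. The summed fast myofiber markers were 143835 to 196136 TPM in the 8 contralateral muscles at 3 DPI, below the lowest control muscle, as Ostn was.

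Running was compared within repair arm and day and then averaged over these strata with equal weight. In injured muscle no member was called, none of the 10 had an unadjusted p under 0.05, and limma called no gene of all tested (0%), although 69 genes had an adjusted p under 0.05 with smaller differences. The differences of the 10 members lay between -0.37 for Ostn and 0.18 for Fos on the log2 scale, and their 95% intervals lay between -0.76 and 0.54, so that a mean change of 1 in either direction was outside all 10 intervals. Here and below, a difference of 1 on log2(TPM + 1) needs a larger fold change in TPM for the scarce Nr4a2, Nr4a3 and Fosb than for the other members. That of Ostn ran from -0.76 to 0.02 (adjusted p = 0.3293). Its direction was lower in running rats in 7 of 8 strata, with differences from -1.11 to 0.84, and Atf3 was higher in 7 of 8.

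The injured Ostn levels show how wide the strata were. Without repair at 3 DPI the lowest, median and highest of 8 running muscles were 0.63, 1.69 and 4.81 TPM, against 1.79 to 3.02 TPM in 3 muscles of other rats. At 7 DPI the 4 running muscles held 4.58, 12.4, 1.47 and 20.8 TPM against 4.12 to 21.4 TPM, and at 14 DPI 42.6, 10.7, 14.6 and 13.5 TPM against 26.9 to 43.7 TPM. The ranges overlapped at 3, 7 and 14 DPI. At 28 DPI the 2 running muscles held 126.4 and 149 TPM, between the lowest and the highest of the other rats. With a graft, the 4 running muscles held 5.35, 0.75, 1.17 and 4.58 TPM at 7 DPI against 1.4 to 31.02 TPM, the stratum with the largest difference (-1.11, unadjusted p under 0.05 but adjusted p = 1). Fos at 3 DPI without repair was 19.5 to 96.0 TPM in running rats and 21.7 to 28.3 TPM in the others. All 10 members overlapped in 7 of the 8 strata, where 0.0177% to 4.86% of all genes lay higher and 0.0618% to 14.5% lower without overlap. The exceptions were at 28 DPI without repair, where Fos was 6.02 and 9.16 TPM in the 2 running muscles against 4.98 to 5.93 TPM, and Junb 13.8 and 16.8 TPM against 17.3 to 22.4 TPM. There 3.77% of all genes lay higher without overlap and 2156 of 11328 lower, and neither gene was called (both adjusted p = 1).

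In contralateral muscle, where 12 running muscles were available at 3, 7 and 14 DPI, no member was called (0% of all genes), and 1 of 10 had an unadjusted p under 0.05, Nr4a3 at -0.42 with an interval of -0.76 to -0.08 (adjusted p = 0.324). All 10 intervals lay within 1 of 0 on the log2 scale, from -0.76 to 0.71. Nr4a2, Nr4a3 and Fosb had medians of 0.48, 0.33 and 0.245 TPM in contralateral muscle of rats not running at 7 DPI. At such levels log2(TPM + 1) moves little, so their intervals do not bound a fold change in TPM. The strata did not all point one way. Without repair at 3 DPI the 2 running rats were below both other rats for 9 of the 10 genes, Fos being 2.43 and 4.09 TPM against 9.75 and 20.7 TPM and Atf3 2.37 and 2.53 TPM against 3.16 and 40.9 TPM, beside 19.2% of all genes that lay lower without overlap, 0.194% of all genes called and no member called. With the contralateral muscle of rat TS5.010 left out, Atf3 (-3.60) and Nr4a3 (-2.19) were called there against rat TS5.017 alone. With a graft at 3 DPI the contralateral muscle of running rat TS5.006 held 68.7 TPM of Fos, 2.56 TPM of Fosb, 25.97 TPM of Egr1 and 17.03 TPM of Atf3, while running rat TS5.005 held 2.65, 0.18, 1.53 and 3.45 TPM of them. Without rat TS5.005 the Fos difference was 3.66 (adjusted p = 0.03247), resting on rat TS5.006 alone. At 7 DPI the members without overlap were all higher in running rats, beside 1701 of 11328 genes without repair and 7.88% of all genes with a graft. Without repair they were Ostn, at 39.3 and 172 TPM against 18.8 to 37.3 TPM (1.49, adjusted p = 0.3464), and Fosb. With a graft they were Fosb, Nr4a1, at 93.6 and 106.6 TPM against 65.1 to 75.1 TPM, and Fos, at 5.1 and 6.45 TPM against 2.29 to 3.78 TPM. At 14 DPI 2 members were lower without overlap in each arm (9.34% and 10.9% of all genes) and 0 and 1 higher (24.6% and 15.1%), and with a graft at 3 DPI 2 were higher and 1 lower (12.7% and 26.1%). None of these was called. The highest contralateral Ostn level, 172 TPM, was that of running rat TS5.004 at 7 DPI, and its injured TA held 12.4 TPM.

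The running difference in injured muscle was not shown to differ from that in contralateral muscle. The test of the difference called no member (0% of all genes), with estimates from -0.72 for Ostn (95% interval -1.44 to 0.01) to 0.40 for Nr4a3, all at adjusted p = 0.9989, and 9 of the 10 intervals lay within 1 of 0. Within running rats alone, 8, 9 and 5 members were called in injured against contralateral muscle at 3, 7 and 14 DPI, beside 42.1%, 43.7% and 25.2% of all genes. Ostn fell by 3.01 ± 0.44, 3.70 ± 0.48 and 1.43 ± 0.48 on these days, the last call being lost without the contralateral muscle of rat TS5.130 (-1.08, adjusted p = 0.06759), and Junb rose by 3.02 ± 0.21, 2.83 ± 0.22 and 2.36 ± 0.22. With size factors Fosb at 3 DPI (0.83) and Nr4a2, Fos and Fosb at 7 DPI (0.54, 0.52 and 0.99) lost their calls, and Nr4a1 at 14 DPI (-1.41) gained a lower one. The call of Nr4a2 at 7 DPI was also lost without the contralateral muscle of rat TS5.004 or TS5.008 (0.89 and 0.96) or the injured muscle of rat TS5.031 (0.94). Fos at 7 DPI lost its call without the contralateral muscle of rat TS5.004 (1.03), and Fosb at 3 DPI without that of rat TS5.005 (0.86). Running rats have no contralateral group at 28 DPI, because the labels of rats TS5.077 to TS5.080 disagree and their libraries entered no group.

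**Figure D4:**
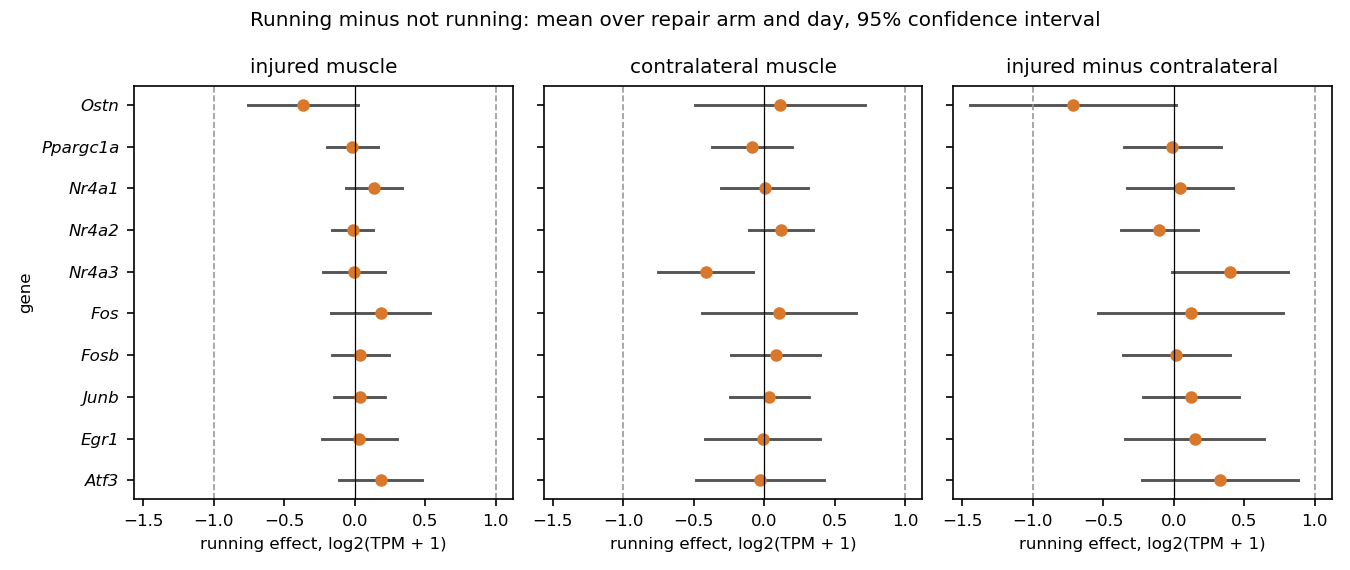
Running minus not running for each gene on log2(TPM + 1), averaged over repair arm and day, with 95% confidence intervals from limma, in injured muscle, in contralateral muscle and for the difference between them. Dashed lines mark 1 and -1; in injured muscle all 10 intervals lie between -0.76 and 0.54, and only the Ostn interval of the difference passes a dashed line.

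No member was called between grafted and non-repaired injured muscle on any day, beside 0.00883%, 0.0883%, 0.0265% and 0% of all genes at 3, 7, 14 and 28 DPI, and the ranges of all 10 overlapped on every day, as did those of all but 5.44%, 0.132%, 7.92% and 0.874% of all genes. An unadjusted p under 0.05 was reached by 0, 1, 1 and 0 members, Egr1 at 7 DPI (0.67 ± 0.27, adjusted p = 0.09132) and Nr4a1 at 14 DPI (-0.59 ± 0.29, adjusted p = 0.7298). Ostn at 28 DPI was 137.4, 17.1, 178 and 72.0 TPM with a graft, a difference of -1.024 with a 95% interval of -2.12 to 0.07, too wide to place it. The difference of injured from contralateral muscle was not called to differ between the arms for any member on any day (0% of all genes), with 2 members at an unadjusted p under 0.05 at 3 DPI. Of these, Atf3 differed by 2.61 and was called only without the contralateral muscle of rat TS5.010 (4.27, adjusted p = 0.0007462), which leaves the high contralateral muscle of rat TS5.017 alone.

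Across the 114 muscles, which share injury, day and library effects, some members went together, as a description. Ostn, Ppargc1a and Nr4a1 went together (Pearson r of log2(TPM + 1) 0.82 to 0.88), and each went against Junb (-0.80 to -0.85). Nr4a3 went with neither, at -0.07 with Ostn, 0.00 with Ppargc1a, 0.05 with Nr4a1 and 0.19 with Junb. After the mean of each group was removed, r was 0.53 for Ppargc1a with Nr4a1, 0.40 for Ostn with Nr4a1 and 0.35 for Ostn with Ppargc1a, whereas it was 0.70 for Fos with Fosb, 0.65 for Fosb with Egr1 and 0.63 for Fos with Egr1. For Nr4a3 with Atf3 r was 0.36 over all muscles and 0.58 within groups. Ostn with Fos, both responsive to activity in textbooks, stood at -0.72 over all muscles and -0.09 within groups. Both muscles of a rat also deviated together for some members, with r between them of 0.66 for Nr4a3, 0.44 for Nr4a2 and 0.37 for Nr4a1 and Fosb over 36 pairs, but 0.01 for Junb.

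**Figure D5:**
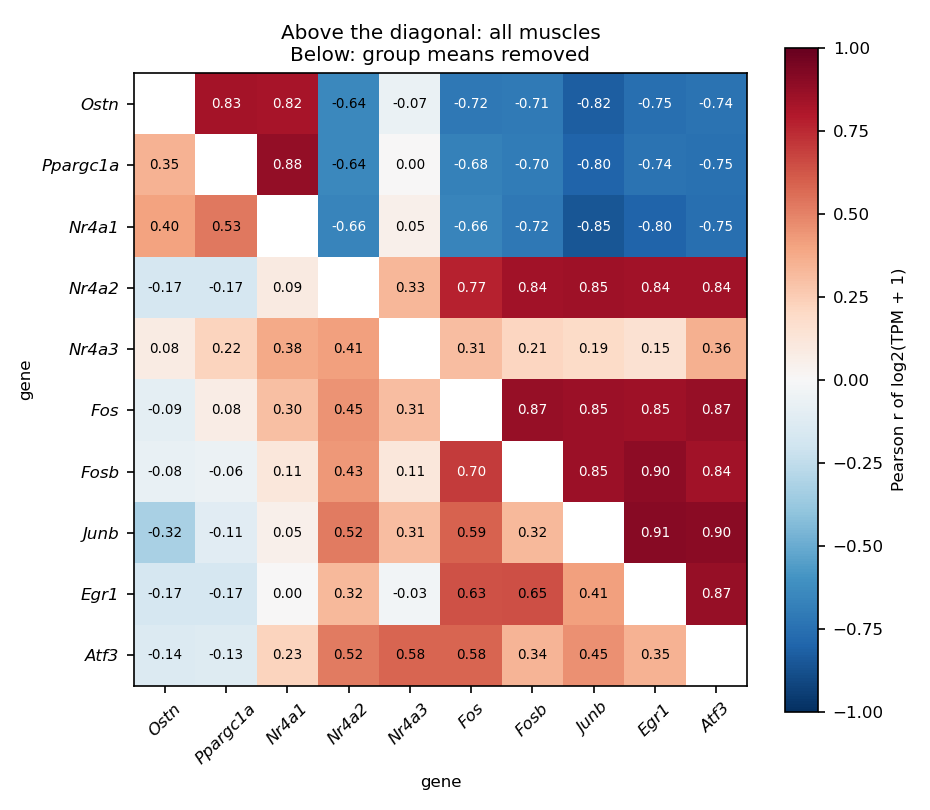
Pearson correlations between the 10 genes on log2(TPM + 1) over 114 muscles, above the diagonal over all muscles and below it after the mean of each of the 31 groups was removed. The large block values above the diagonal shrink below it, where Fos and Fosb keep 0.70 and Ostn keeps at most 0.40 with any other member.

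Outside the members, the tested genes most like Ostn over the 114 muscles were Fam184b, Lrrc38, Cmbl, Fbp2 and Mdh2 (r from 0.92 to 0.91, and 0.46 to 0.64 within groups). Fbp2 is the muscle fructose-bisphosphatase and Mdh2 the mitochondrial malate dehydrogenase. Those most like Ppargc1a were Smyd1, a muscle methyltransferase, Fam210a, Phtf2, Clcn1, the chloride channel of myofibers, and Jph1, a junctophilin of the triad, at r from 0.96 to 0.95 and 0.80 to 0.85 within groups. Those most like Fos were Ier2, Cyr61, Gch1, Btg2 and Nfkbiz at r from 0.86 to 0.84, with 0.44 to 0.61 within groups, of which Ier2, Cyr61 and Btg2 are early response genes.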

How the data were processed

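RNA of rat TA muscle was sequenced, and the authors quantified reads with Kallisto at default parameters (its version is not given in the sources used here) against the GenBank-annotated rat genome build 6.0. They deposited TPM per gene symbol in 1 table of 138 libraries and 16182 entries. The last entry is incomplete and was left out. TPM holds no read depth, so the precision of single values is set by their number only.

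The genes and lists were chosen with earlier results of these data known. Of the libraries, 9 were left without a group because their labels disagree, and libraries under 7000 symbols above 1 TPM were dropped. Libraries of 1 muscle were averaged. Genes with a group mean above 1 TPM were fitted on log2(TPM + 1) in limma 3.58.1 (R 4.3.3), trend included, as 1 model of 31 groups with 83 residual degrees of freedom. Adjusted p-values (Benjamini-Hochberg) cover all tested genes. The model code was run on simulated data with independent noise and few changed genes. That run held no rat effect and no shift of most genes, so it does not test how the model handles these. Comparisons that use the same control or contralateral muscles are not independent.

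Injured and contralateral muscles of 34 rats and both TAs of the 2 control rats form 36 pairs by rat number. Their mean correlation of deviations was 0.07, against -0.01 between rats, so the rat was also fitted as a random block (statmod 1.5.0). Named genes were the 10 members, the 3 called genes with the largest change per list and comparison, and the 5 genes most like Ostn, Ppargc1a and Fos. Comparisons by day in contralateral muscle and within running rats, and the arm difference, were added after seeing the data. Alternatives covered the pseudocount, filter, scaling, library limit, fold limit, block, sample unit, rats used, rat number range and each muscle left out. Figures used Python 3.11.15, pandas 2.3.3 and matplotlib 3.10.9.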

Additional observations from a re-analysis of the deposited data

Results flagged for a closer look

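Of 160 sets of values checked, 1 for each of the 10 genes in 16 groups of 4 to 8 muscles, 18 held 1 muscle distant from its group. The limits used flag about 1 in 20 sets only where values are normally distributed. TPM was used here without a log, and the genes share muscles, so that rate need not hold. Whether the flags exceed chance was not tested. At 3 DPI in grafted running rats, rat TS5.025 was far above the others for Nr4a2 (3.59 TPM), Nr4a3 (2.67 TPM) and Atf3 (94.1 TPM), and rat TS5.104 for Fos (79.02 TPM) and Fosb (7.16 TPM). In grafted rats not running at 3 DPI, rat TS5.021 was far above for Fosb (6.32 TPM) and Egr1 (63.3 TPM). At 7 DPI without repair, rat TS5.125 was far above for Nr4a1 (54.95 TPM) and Nr4a3 (2.67 TPM) in the injured TA and for Nr4a3 (2.80 TPM) in the contralateral TA. At 7 DPI with a graft, rat TS5.023 was far above for Junb (127.3 TPM) and Atf3 (35.7 TPM), rat TS5.127 for Fosb (7.00 TPM) and rat TS5.108 for injured Ostn (31.02 TPM), while the contralateral TA of rat TS5.108 was far below for Junb (5.61 TPM). At 28 DPI with a graft, rat TS5.076 was far above for Junb (52.0 TPM), the next muscle holding 19.5 TPM. Among running rats without repair, rat TS5.030 at 3 DPI (4.81 TPM) and rat TS5.130 at 14 DPI (42.6 TPM) were far above for Ostn.

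Of the 9 libraries whose labels disagree and that entered no comparison, 5 exceeded the highest control muscle for Ostn, 3 for Junb, 2 for Ppargc1a and 1 for Atf3.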

How the results depend on the processing

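Over the days of each comparison, the number of member calls was 19 for injured against control, 19 against contralateral muscle, 24 against contralateral muscle in grafted rats, 0 for graft against no repair, 1 for contralateral muscle against control, 0 in each of the 3 running comparisons and 4 between successive days. The counts without repair include Ostn at 3 DPI, which is a description only. Leaving out 1 muscle at a time gave 18 to 21, 17 to 21, 22 to 25, 0 to 0, 0 to 1, 0 to 0 for running, and 3 to 4. With the rat as a random block, which has a within-rat correlation of 0.03 in the model, these counts were again 19, 19, 24, 0, 1, 0 and 4. The block changed no member's call. It applies the same correlation to all genes, while r between both muscles of a rat was 0.66 for Nr4a3 and 0.44 for Nr4a2. The block therefore did not test rat effects of that size, nor the use of 4 control muscles from 2 rats. With all libraries kept, the 3 injury counts were 17, 14 and 22, contralateral muscle against control gave 0 calls and successive days 2. Nr4a1 in injured against contralateral muscle at 7 DPI then turned from lower to 0.12 (adjusted p = 0.7963). That contralateral group held 6 muscles in place of 4. Those of rats TS5.011 and TS5.012 came only from dropped libraries, with 3301 and 901 symbols above 1 TPM. The part of these libraries in the change was not tested. With the adjusted p alone, without the fold limit, successive days gave 11 calls. Of 230 member results per setting, 179 kept direction and call with size factors (19 lost calls, 15 gained, 17 not called changed sign), 205 with all libraries kept (12 lost, 1 gained, 12 changed sign, of which the Nr4a1 result above had been called), 215 with a pseudocount of 0.1 TPM (14 gained, 1 changed sign, the gained calls being 3 of Nr4a2, 3 of Nr4a3, 5 of Fosb and 1 each of Atf3, Ppargc1a and Nr4a1) and 227 without the filter (3 lost). With the adjusted p alone 209 kept theirs and 21 gained a call. Using only rats not running (200 results) or each library as its own sample (230) changed no call and no sign.

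The other changes of sign were in differences called neither before nor after the change. With size factors, against control, Nr4a2 was -0.086, -0.018 and -0.19 at 3, 14 and 28 DPI, Fos -0.40 at 7 DPI and Egr1 -0.31 at 28 DPI, and Fosb was -0.021 against contralateral muscle at 28 DPI. For graft against no repair, Egr1 was -0.016 at 3 DPI, Atf3 -0.065 at 14 DPI, and Ppargc1a, Fosb and Atf3 were -0.066, -0.009 and -0.060 at 28 DPI. Ppargc1a in contralateral muscle against control was -0.055. For running, Nr4a3 was 0.002 in injured muscle, Nr4a1 and Junb -0.052 and -0.013 in contralateral muscle, and Ppargc1a 0.026 in the difference between both. Nr4a3 from 7 to 14 DPI was 0.001. With all libraries kept, Ppargc1a was 0.17 against contralateral muscle at 7 DPI, and for graft against no repair at 7 DPI Ppargc1a, Nr4a1, Nr4a3 and Fosb were 0.060, 0.14, 0.15 and 0.090. Fosb, Junb and Egr1 were -0.011, -0.034 and -0.035 for running in injured muscle and Nr4a1 -0.10 in the difference between muscles. From 3 to 7 DPI Nr4a3 and Fosb were -0.086 and -0.047. A pseudocount of 0.1 TPM gave 0.031 for Atf3 and running in contralateral muscle. With a term for blocks of rat numbers, 4 of 70 results changed sign and none its call: Junb was 0.078 for graft against no repair at 3 DPI, Nr4a3 0.030 for running in injured muscle, and Ppargc1a and Junb 0.005 and -0.048 in contralateral muscle. For running at 3 and 7 DPI only, 6 of 30 changed sign: Nr4a2 was 0.040 in injured muscle, Egr1 and Atf3 0.11 and 0.074 in contralateral muscle, and Fos, Fosb and Junb -0.17, -0.033 and -0.061 in the difference. At 14 DPI only, 5 of 30 did: Fosb was -0.12 in injured muscle, and Ostn, Fos, Fosb and Junb were -0.23, -0.64, -0.24 and -0.043 in contralateral muscle. The cause was not tested. Depth per library is unknown, so levels near 0, such as those of Nr4a2, Nr4a3 and Fosb in uninjured muscle, are given without a counting error.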

Other observations

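Libraries without a group are given as values only. For running rats TS5.077, TS5.078, TS5.079 and TS5.080 at 28 DPI the title and the label of a library name opposite muscles. The library titled as contralateral held 121, 109, 147 and 116 TPM of Ostn in these rats, and the library titled as injured held 92.1, 36.95, 43.7 and 43.1 TPM. For Junb the library titled as contralateral held 13.6, 19.6, 17.2 and 22.8 TPM and the library titled as injured 7.61, 9.94, 5.61 and 8.04 TPM. Nr4a1 stood at 65.7, 71.6, 73.9 and 67.4 TPM in the former and 64.95, 80.3, 107.5 and 98.9 TPM in the latter. Atf3 reached 31.1 TPM in the library of rat TS5.078 titled as contralateral, and 1.41 to 9.74 TPM in the other 7. The contralateral library of rat TS5.011, labelled with 3 days while the other libraries of that rat carry 7 days, held 45.9 TPM of Ostn, 85.1 TPM of Nr4a1 and 3.63 TPM of Fos.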
